A study of Mus musculus with 22 samples.

Results

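Accessible chromatin was profiled by ATAC-seq, which reads open DNA by transposase insertion, in 3 splenic dendritic cell subsets. The regions described here are 1964 of 177956 windows of 150 bases, each centred on the summit of an ATAC-seq peak, in which T-bet- cDC2 had more reads than the other subsets. They were chosen on the measured counts themselves. A window was kept when both T-bet- cDC2 libraries had at least 3 counts per 1000000 (CPM, the window's count divided by all counts of that library in windows) and the lower of them was at least 1.5 times the highest value of the 4 T-bet+ cDC2 and cDC1 libraries. The difference between T-bet- cDC2 and the other subsets in these windows is therefore the selection and not a result.

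Conventional dendritic cells take up, process and present antigen to T cells, and are divided into cDC1, which excel at presenting to CD8 T cells, and the more heterogeneous cDC2. T-bet, encoded by Tbx21, is a T-box transcription factor best known from T helper cells and innate lymphoid cells. Distal open regions of this kind often hold binding sites for transcription factors, and C/EBP, PU.1 and AP-1 family proteins are widely used regulators of myeloid genes, with C/EBP factors prominent in monocytes, macrophages and granulocytes.

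All cells came from Tbx21RFP-cre mice, in which a red fluorescent protein and Cre are expressed from the Tbx21 locus, aged 6 to 10 weeks, male and female, with sexes matched. RFP- cDC2 (T-bet-), RFP+ cDC2 (T-bet+) and cDC1 were sorted. ATAC-seq was done on 50000 sorted cells per sample from pooled spleens with 2 libraries per subset, and RNA-seq on spleen with 3 libraries per subset and on mesenteric lymph node (MLN) with 2 libraries of T-bet- cDC2, 2 of T-bet+ cDC2 and 3 of cDC1. The methods give RNA-seq cells as pooled from 2 mice and the libraries as biological replicates, so p-values measure the spread between such pools. The sources used here do not say whether subsets with the same replicate number came from the same mice. The subsets are defined by the reporter and surface markers, and a sorted T-bet- cDC2 sample is whatever cDC2 lacked the reporter. RFP- was taken as T-bet- as the labels give it.

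The labels were checked with Tbx21 RNA. In the spleen, the 3 T-bet- cDC2 libraries had 6.772, 36.27 and 55.68 normalised counts of Tbx21, against 541.7, 583.8 and 404.5 in T-bet+ cDC2 and 20.84, 28.88 and 3.412 in cDC1. In the MLN, T-bet- cDC2 had 14.84 and 23.98, T-bet+ cDC2 187.1 and 77.22, and cDC1 6.547, 9.854 and 9.073. Tbx21 was highest in every T-bet+ cDC2 library of either organ. In ATAC-seq the windows at the Tbx21 promoter were also highest in T-bet+ cDC2, with a summed 26.29 and 23.03 CPM, but lowest in T-bet- cDC2, at 10.66 and 13.23 CPM, below the 18.45 and 15.27 CPM of cDC1. Windows at the promoter of Clec12a, a surface marker of T-bet- cDC2, went against the labels, with 56.66 and 61.16 CPM in T-bet- cDC2 and 62.59 and 68.9 CPM in T-bet+ cDC2.

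The windows were more open in T-bet- cDC2 rather than open in that subset alone. In 968 of the 1964 windows, at least 1 library of another subset also reached 3 CPM, and all 4 other libraries were below 1 CPM in only 47. Library totals ranged from 7270164 to 10081555 counts in windows, so that the smallest count of a T-bet- cDC2 library in a member was 26 and the median 59. Member windows lay in 1686 of 74217 peaks, 236 of which held more than 1 member, and 172 members shared bases with another, leaving 1875 separate stretches.

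The sequences of 12 windows are printed from the plus strand of mm10 (GRCm38), 5′ to 3′, since the letters they hold recur in the comparison of motifs. Capitals mark matches on either strand to C/EBP (TTGCNNAA), AP-1 (TGANTCA), ROR (TAGGTCA), NFI (TTGGCA) and PU.1 (GAGGAAGT) letters. A match is a description of the sequence and not an occupied site. Shown first are the 3 windows with large ratios of the lower T-bet- cDC2 value to the highest other value, at chr7:117484774-117484923 in an intron of Xylt1 (the largest ratio of all), chr2:60901812-60901961 in an intron of Rbms1 and chr10:68715496-68715645, 8001 bases from Tmem26.
Xylt1: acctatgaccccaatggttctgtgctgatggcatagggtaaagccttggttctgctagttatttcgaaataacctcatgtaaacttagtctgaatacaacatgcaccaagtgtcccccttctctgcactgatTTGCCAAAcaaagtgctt
Rbms1: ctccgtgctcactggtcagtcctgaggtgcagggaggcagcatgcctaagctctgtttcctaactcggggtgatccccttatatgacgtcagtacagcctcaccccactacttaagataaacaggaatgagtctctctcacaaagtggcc
Tmem26: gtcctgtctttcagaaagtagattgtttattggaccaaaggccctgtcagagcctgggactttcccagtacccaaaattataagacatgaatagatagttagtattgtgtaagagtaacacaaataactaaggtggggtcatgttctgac
Next are the windows that held each motif at the highest T-bet- cDC2 signal. The window at chr17:43138515-43138664, 7377 bases from the lincRNA CT486005.1, held C/EBP letters at 2 places and AP-1 letters at 1, and the window at chr17:43138003-43138152 nearby held the NFI letters. The window at chr3:51195417-51195566, 28881 bases from Noct, held 2 AP-1 matches, and the window at chr13:90516025-90516174, with no gene within 50000 bases, held both ROR and PU.1 letters.
CT486005.1 first: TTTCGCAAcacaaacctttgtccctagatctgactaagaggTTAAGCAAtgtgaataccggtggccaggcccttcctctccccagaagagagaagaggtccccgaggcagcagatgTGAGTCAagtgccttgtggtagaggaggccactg
CT486005.1 other: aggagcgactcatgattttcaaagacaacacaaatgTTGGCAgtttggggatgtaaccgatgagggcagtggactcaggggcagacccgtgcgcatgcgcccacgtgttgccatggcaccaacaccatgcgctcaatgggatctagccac
Noct: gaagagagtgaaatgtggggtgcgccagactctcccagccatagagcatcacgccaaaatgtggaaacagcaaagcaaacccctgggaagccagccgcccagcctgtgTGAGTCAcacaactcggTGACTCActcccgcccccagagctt
Chromosome 13: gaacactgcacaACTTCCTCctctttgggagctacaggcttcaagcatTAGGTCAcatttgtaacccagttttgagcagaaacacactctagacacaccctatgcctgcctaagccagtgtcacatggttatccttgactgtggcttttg
The window with the highest signal of all members was at the promoter of Cebpd, chr16:15887149-15887298, of which the 137 bases outside the transcript's untranslated region are given, chr16:15887149-15887285. It held none of these motifs.
Cebpd: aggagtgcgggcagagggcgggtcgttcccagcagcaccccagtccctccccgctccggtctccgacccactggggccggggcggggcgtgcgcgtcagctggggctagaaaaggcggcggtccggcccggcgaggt
The last 4 windows lie at genes whose RNA is described further on, and were chosen after those values were seen. All 4 hold marked letters and are not typical of such genes. Other members closest to Msr1, Cx3cr1 and Mcub held none of these motifs, such as chr3:129970046-129970195 at the Mcub promoter (31.6 and 34.3 CPM in T-bet- cDC2). Of all members, 39.2% held C/EBP or AP-1 letters. They are chr8:39650088-39650237 at 7415 bases from Msr1 (C/EBP letters), chr9:120043303-120043452 in an intron of Cx3cr1 (C/EBP letters), chr17:57228137-57228249 at the promoter of C3 (C/EBP letters, 113 of its bases) and chr3:129969449-129969598 at the promoter of Mcub (AP-1 letters).
Msr1: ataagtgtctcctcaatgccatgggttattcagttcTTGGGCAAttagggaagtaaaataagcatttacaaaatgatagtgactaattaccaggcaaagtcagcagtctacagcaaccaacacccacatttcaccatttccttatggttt
Cx3cr1: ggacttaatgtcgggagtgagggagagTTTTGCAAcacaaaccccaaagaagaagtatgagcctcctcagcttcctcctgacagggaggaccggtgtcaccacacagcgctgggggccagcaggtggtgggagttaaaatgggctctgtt
C3: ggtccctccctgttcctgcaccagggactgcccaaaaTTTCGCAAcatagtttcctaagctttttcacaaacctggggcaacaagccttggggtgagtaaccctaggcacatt
Mcub: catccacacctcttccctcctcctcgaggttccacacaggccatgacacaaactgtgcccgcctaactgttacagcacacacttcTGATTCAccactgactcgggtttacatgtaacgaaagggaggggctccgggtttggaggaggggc

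The ratio that chose the windows had a median of 1.85 and reached 10.6. It was at least 2 in 767 windows, at least 3 in 221 and at least 5 in 39. The library next below was T-bet+ cDC2 in 1182 windows and cDC1 in 782. The pair of T-bet- cDC2 libraries differed from each other by a median factor of 1.14, with 95% of windows under 1.55. The median member had 6.35 and 6.62 CPM in T-bet- cDC2, 2.28 and 2.39 CPM in T-bet+ cDC2 and 2.01 and 2.06 CPM in cDC1. Over all windows these medians were 2.16 and 2.24, 1.98 and 2.09, and 2.64 and 2.75 CPM.

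**Figure D1:**
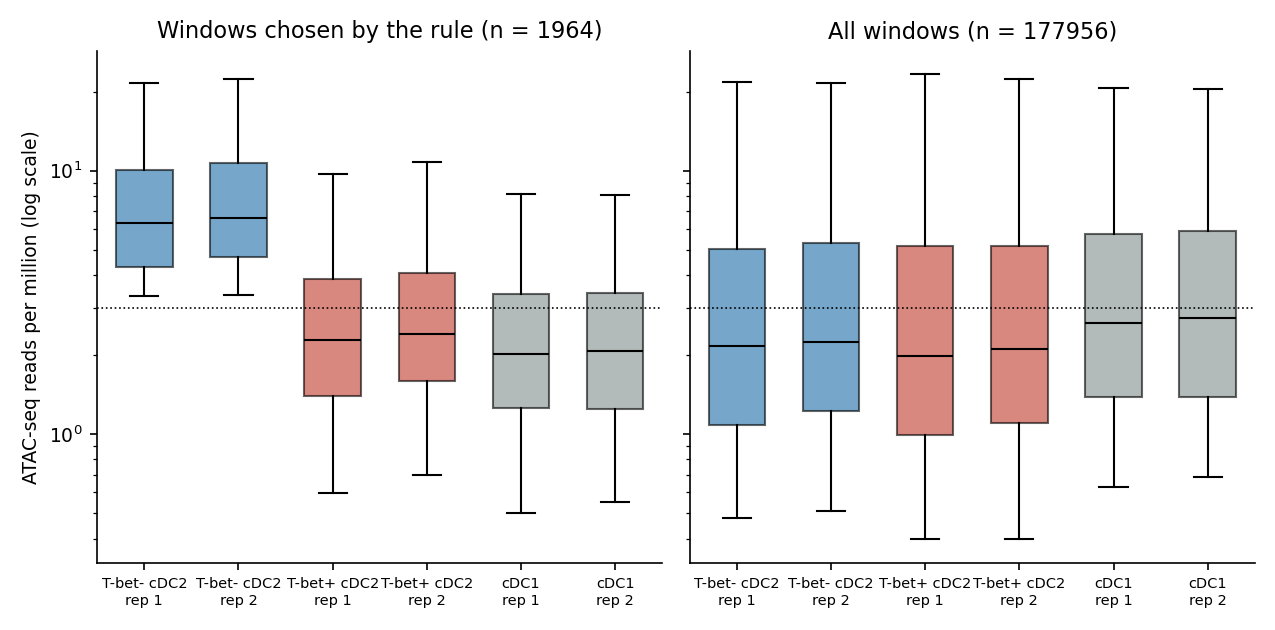
CPM per window in each of the 6 ATAC-seq libraries, for the 1964 members and for all 177956 windows, with boxes at the quartiles, a line at the median, whiskers from the 5th to the 95th percentile and a dotted line at 3 CPM. The members' medians are 6.35 and 6.62 CPM in T-bet- cDC2 and between 2.01 and 2.39 CPM in the other 4 libraries, and the T-bet- cDC2 boxes stand apart because the rule chose them so.

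Some windows with a large ratio had little signal outside T-bet- cDC2. The Xylt1 window had 8.27 and 7.43 CPM in T-bet- cDC2, 0.694 and 0.698 CPM in T-bet+ cDC2 and 0.376 and 0.55 CPM in cDC1. The Rbms1 window, in a gene for an RNA-binding protein, had 21.2 and 23.9 CPM in T-bet- cDC2, 1.29 and 2.79 CPM in T-bet+ cDC2 and 2.01 and 2.34 CPM in cDC1. The Tmem26 window had 7.43 and 10.3 CPM, 0.496 and 1.2 CPM, and 0.376 and 0.275 CPM in the same order. The Xylt1 and Tmem26 windows were thus below the library medians of all windows outside T-bet- cDC2 (1.98 to 2.75 CPM), and the Rbms1 window was near them. The windows with the highest signal had smaller ratios. At the Cebpd promoter, T-bet- cDC2 had 78.6 and 65.7 CPM, T-bet+ cDC2 35.8 and 39.5 CPM and cDC1 26.5 and 20.4 CPM, and at the chromosome 13 window 53.7 and 57.9, 19.3 and 21.4, and 6.27 and 4.95 CPM. Both were open in every library.

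Just inside the ratio of 1.5 were windows at the Gm49723 and Kazald1 promoters and beside Ak9. The Kazald1 window had 7.91 and 8.24 CPM in T-bet- cDC2, and its highest other value was 5.27 CPM. Just outside were a window at chr1:7824110-7824259 with 25.9 and 28.9 CPM against 17.3 CPM in T-bet+ cDC2, a promoter window of Aga and a promoter window of Xylt1. The Xylt1 promoter window, with 17.4 and 17.2 CPM in T-bet- cDC2 and 11.5 CPM as its highest other value, missed a rule that 10 windows closest to the same gene met.

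T-bet+ cDC2 and cDC1 were also set side by side in the members. The rule capped the highest value of these same 4 libraries, which limits how far either subset can exceed the other, so the counts are a description and nothing is read from their distance to all windows. All 1964 windows entered the fit (edgeR, adjusted p under 0.01 and a log2 fold change of at least 0.5 in size). Of them, 262 (13.3%) passed as more open in T-bet+ cDC2, where 11.0% of all 166547 windows tested were, and 23 (1.17%) passed as more open in cDC1, where 12.0% of all were. The median log2 fold change of T-bet+ cDC2 over cDC1 was 0.36 in the members, with 1402 above 0, and 0.00 over all windows tested. The count of 262 was 169 without cDC1 replicate 1 and 144 without cDC1 replicate 2, and the count of 23 was 12 without T-bet+ cDC2 replicate 1 or without cDC1 replicate 2. As a description of the selection, 1142 members (58.1%, with 2.36% of all windows) passed the same thresholds for T-bet- over T-bet+ cDC2 and 1644 (83.7%, with 7.32% of all windows) for T-bet- cDC2 over cDC1.

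Windows beside the members were also shifted. The 1686 peaks held 2593 further windows that did not meet the rule, and their median ratio of the lower T-bet- cDC2 value to the highest other value was 0.955, against 0.575 over all windows. The ratio was above 1 in 45.6% of these neighbours and in 11.3% of all windows. Neighbours share a peak with a member, and may overlap it, so they are not independent of it.

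The members lay away from promoters more often than the windows at large. A promoter, defined as within 2000 bases of a transcript start, held 21.7% of members (427 of 1964) and 30.1% of all windows. Introns held 37.4% of members and 34.2% of all windows, and intergenic sequence within 50000 bases of a gene 33.9% and 27.6%. Windows chosen by the mirrored rule for T-bet+ cDC2 (3544 windows) and for cDC1 (14492 windows) were at promoters in 19.1% and 18.8%, so the low promoter share was common to windows that favoured 1 subset. Members held a mean of 2.32 CpG, against 3.22 in all windows, and 3.51% of members had 8 or more CpG, against 10.8%. Their median GC content of 48.7% was close to the 49.3% of all windows.

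Some members were close together. Joined at distances up to 50 kb, the 1964 windows formed 1361 groups, of which 983 were single windows and 26 held at least 5 windows. The groups with most windows were 9 windows over 32.9 kb in and around Xylt1 on chromosome 7 (117462272 to 117495157), a gene for xylosyltransferase, which starts glycosaminoglycan chains, and 9 over 32.6 kb beside Noct on chromosome 3 (51183649 to 51216229), a gene for nocturnin, a phosphatase with circadian expression. A group of 7 spanned 90.9 kb of Fndc3b, a gene of the fibronectin type III domain family. Another group of 7 lay over 72.4 kb in Slc16a10, a gene for an aromatic amino acid transporter. Mcub, a gene for a subunit that dampens the mitochondrial calcium uniporter, had 5 windows, and so did Ets2, a gene for an ETS transcription factor.

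**Figure D2:**
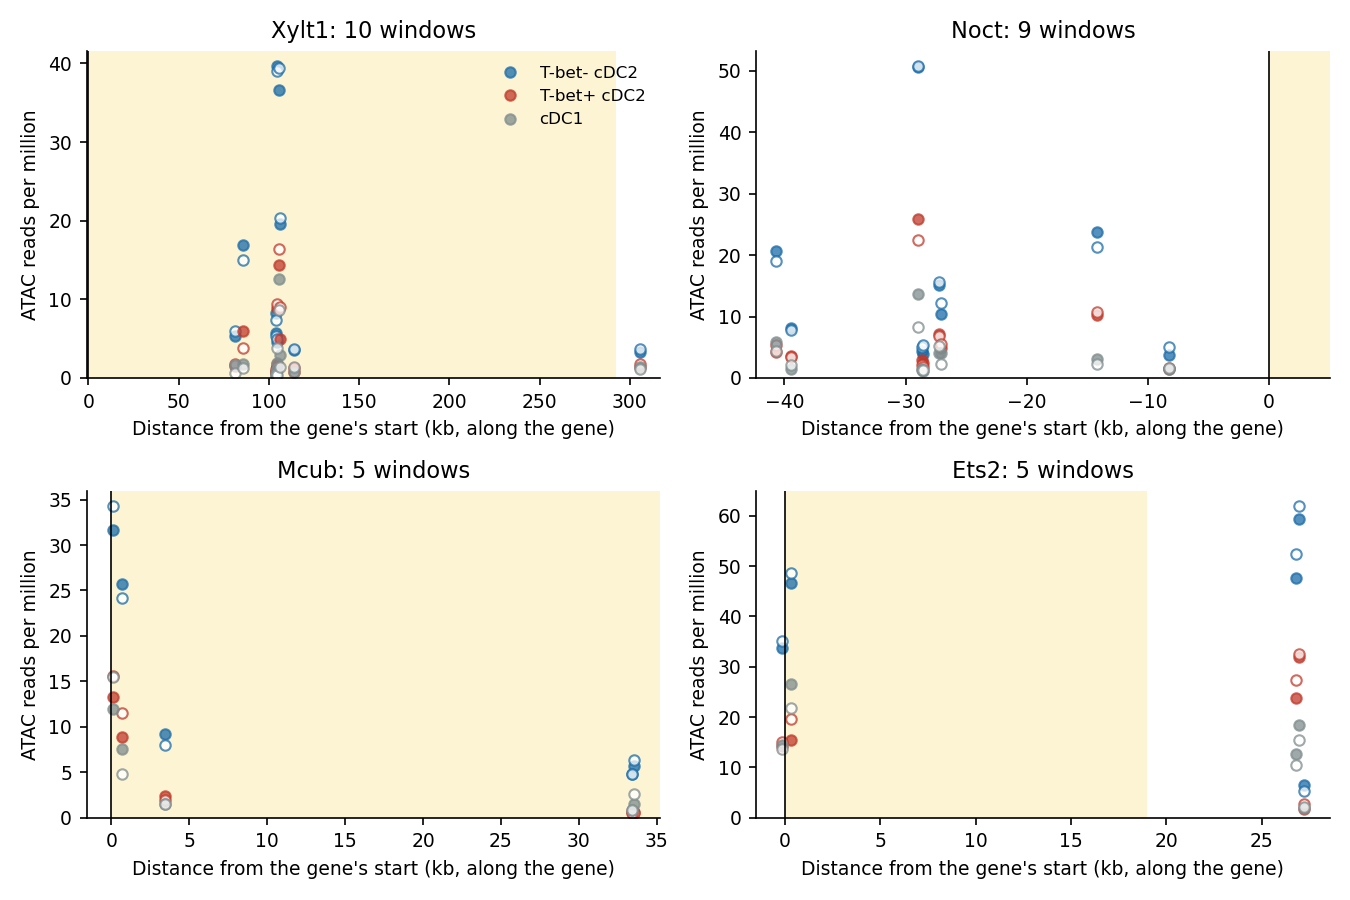
CPM in each library at the windows near Xylt1, Noct, Mcub and Ets2, plotted by distance in kb from the gene's start, with filled points for replicate 1, open points for replicate 2 and a yellow bar for the gene body. At each member window both T-bet- cDC2 points lie above all 4 others, as the rule requires, and the distance to the next library differs from window to window.

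Of the 18 sequence motifs searched on both strands, AP-1 and C/EBP letters exceeded their share of all windows by the most. AP-1 letters (TGANTCA) were in 24.7% of members, 7.90% of all windows, 12.6% of the T-bet+ cDC2 windows and 11.7% of the cDC1 windows. C/EBP letters (TTGCNNAA) were in 18.3% of members, 5.89% of all windows, 5.42% of T-bet+ cDC2 windows and 5.22% of cDC1 windows. For C/EBP, unlike AP-1, the windows of the other subsets were at or below the share of all windows. Either motif was in 769 members (39.2%) and 13.3% of all windows, and both were in 77 members (3.92%), such as the CT486005.1 window printed first, and in 0.482% of all windows. The sequence letters were not part of the rule. These shares are given with no test, since overlapping windows and windows of 1 peak share sequence.

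Other motifs were nearer to the background. Nr4a letters (AAAGGTCA) were in 1.83% of members, 1.01% of all windows, 2.14% of T-bet+ cDC2 windows and 1.26% of cDC1 windows. MAF letters (TGCTGAC) were in 4.89% of members and 3.03% of all windows. The shorter nuclear receptor letters (AGGTCA), which the Nr4a and ROR letters contain, were in 14.0% and 9.98%. NFI letters (TTGGCA), which overlap the C/EBP letters in the Xylt1 window, were in 9.16% of members and 6.99% of all windows. The ROR element (TAGGTCA) was in 2.09% of members, with a 95% Wilson interval of 1.54 to 2.82%, and in 1.57% of all windows. It was in 1.69% of T-bet+ cDC2 windows and 1.91% of cDC1 windows. PU.1 letters (GAGGAAGT) were in 7.64% of members, 5.50% of all windows, and 9.79% and 9.75% of the T-bet+ cDC2 and cDC1 windows. Runx letters (TGTGGTT) were in 7.84% of members and 12.6% of T-bet+ cDC2 windows, with 5.23% of all windows. KLF letters (GGGNGTGG) were in 8.86% of members and 6.44% of all windows.

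The E-box, T-box and GC box letters were less frequent in the members than in all windows. The E-box CAGGTG, bound by E proteins, was in 2.24% of members against 10.8% of all windows, 13.5% of T-bet+ cDC2 windows and 10.6% of cDC1 windows. T-box letters (AGGTGTNA), of the family of T-bet, were in 0.611% of members, 1.92% of all windows, 4.60% of T-bet+ cDC2 windows and 1.89% of cDC1 windows. GC box letters (GGGCGG) were in 6.77% of members and 8.52% of all windows, with 5.25% of T-bet+ cDC2 windows and 3.79% of cDC1 windows. Unlike the whole set, members away from promoters held GC box letters more often than all such windows, as given below. IRF and NF-kB letters were near the background of all windows. IRF letters (GAAANNGAA) were in 5.35% of members and 5.61% of all windows, where 11.5% of cDC1 windows held them. NF-kB letters (GGGANTTCC) were in 0.916% of members, with a 95% Wilson interval of 0.581 to 1.44%, and in 1.08% of all windows, where 3.47% of T-bet+ cDC2 windows held them. STAT, CTCF and Rbpj letters were within 1 percentage point of all windows.

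**Figure D3:**
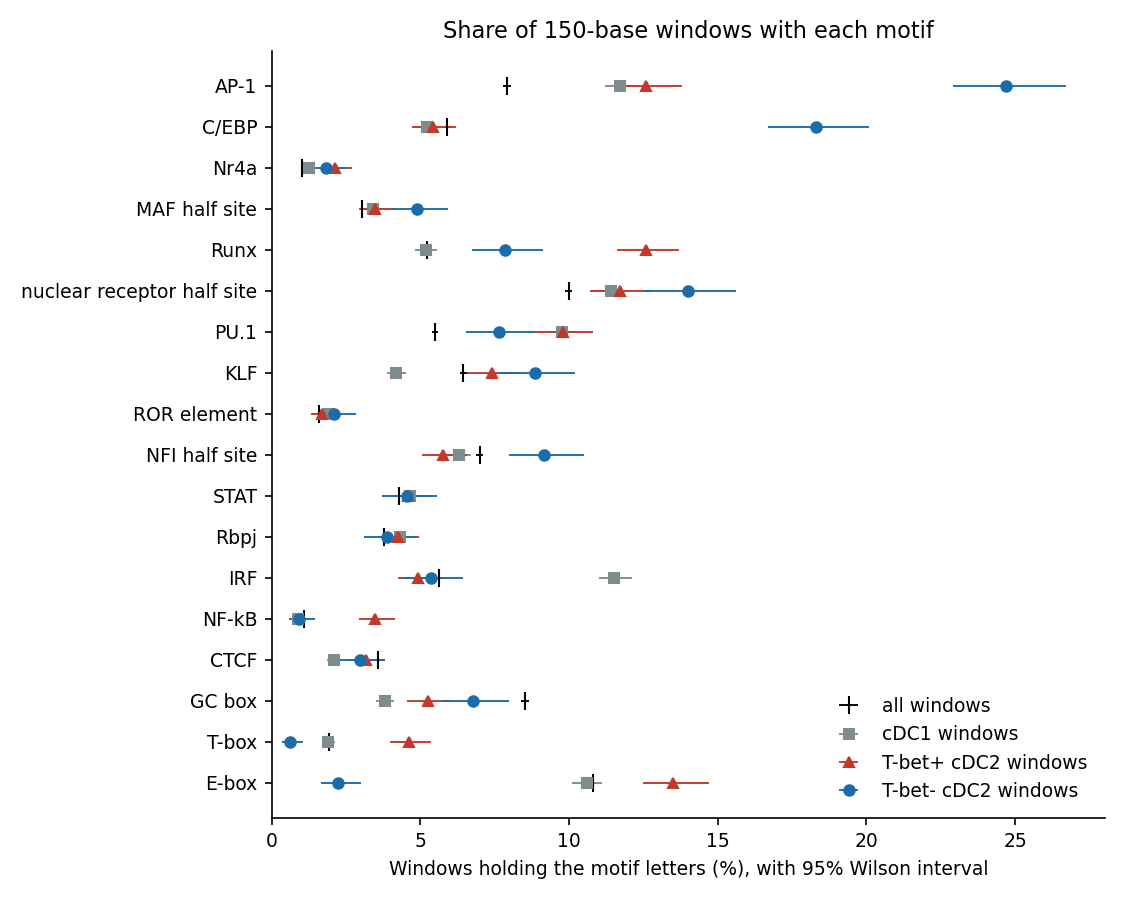
Share of windows, in percent, that hold each motif on either strand, for the members, all windows and the windows chosen by the mirrored rule for T-bet+ cDC2 and for cDC1, with 95% Wilson intervals, which cover counting error only. AP-1 (24.7%) and C/EBP (18.3%) letters are far to the right of all windows in the members, and the E-box (2.24%) is far to the left.

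The motif shares varied with how far a member exceeded the other libraries. C/EBP letters were in 13.7% of members with a ratio from 1.5 to 2, in 20.9% from 2 to 3 and in 37.1% at 3 or more. AP-1 letters were in 22.9%, 28.0% and 26.7% of the same classes, and E-box letters in 3.01%, 0.916% and 1.36%. Of these 3 motifs, only C/EBP had a larger share in each further class. The full C/EBP letters took different forms, and TTGCACAA was in 3.92% of members and 0.503% of all windows, where TTGCAGAA was in 0.764% and 0.906%. For AP-1, TGACTCA or its complement was in 20.1% of members and 5.95% of all windows. C/EBP matches lay within 25 bases of the window's centre in 49.4% of cases, against 39.3% over all windows, and AP-1 matches in 53.0% against 46.3%.

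The C/EBP and AP-1 differences were present at promoters and away from them. Among members at promoters, 17.8% held C/EBP letters and 23.4% AP-1 letters, against 4.87% and 5.42% of all promoter windows. Among members elsewhere, the shares were 18.5% and 25.1%, against 6.34% and 8.97%. The ROR element was in 14 of the 427 promoter members (3.28%, interval 1.96 to 5.43%), against 1.22% of all promoter windows, and in 1.76% of the other members, against 1.73%. GC box and KLF letters changed direction with position. GC box letters were in 11.2% of promoter members, against 20.5% of all promoter windows, and in 5.53% of the other members, against 3.36%. KLF letters were in 7.49% against 8.61% at promoters and in 9.24% against 5.5% elsewhere. This split by position was chosen after the shares had been seen.

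RNA was measured in separate samples and was not used by the rule. Each window was assigned to the closest gene within 50000 bases, which 1888 windows had, and 76 did not. They named 1348 genes, of which 908 could be matched by symbol to the count table and 737 passed the filter on low counts in the spleen (for 1066 windows) and 742 in the MLN (for 1055 windows). Genes high in T-bet- cDC2 alone can pass this filter through that subset, so the counts that follow describe genes that passed and are not support for a link. The closest gene need not be the gene a window acts on, and in sorted bulk samples fewer cells of a type and less RNA per cell cannot be told apart.

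The spleen RNA libraries fell into 2 classes by the correlation of their counts with transcript GC content. T-bet- cDC2 replicates 1 and 2 and cDC1 replicate 3 were negative (rank correlations of -0.45, -0.30 and -0.30), and the other 6 were between 0.19 and 0.32. The class was uneven over the subsets, with no T-bet+ cDC2 library in the negative class. RNA library totals were 20993220 to 27317480 counts in the spleen and 22733964 to 29006549 in the MLN. Results are therefore given also with the class as a term where it changes them. Results without the third T-bet- cDC2 library are given too, but do not adjust for the class. All T-bet- cDC2 libraries are then of the negative class and all T-bet+ cDC2 libraries of the other.

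In the spleen, 101 of the 737 tested genes closest to a member (13.7%) were higher in T-bet- cDC2 than in T-bet+ cDC2 and 6 (0.814%) were lower (edgeR quasi-likelihood, adjusted p under 0.05), where 3.44% and 1.95% of all 14377 genes tested were. Their median log2 fold change was 0.37, with 66.6% above 0, against 0.01 over all genes tested. Genes closest to a T-bet+ cDC2 window, tested in the same samples, had 46 higher and 69 lower of 1299 and a median of -0.24. Genes closest to a cDC1 window had 178 higher and 72 lower of 3561 and a median of 0.03. The count of 101 fell to 62 and 66 without T-bet- cDC2 replicate 1 or 2, where 1.86% and 1.98% of all genes were higher. It was 53, 49 and 55 without T-bet+ cDC2 replicate 1, 2 or 3, where 1.51%, 1.40% and 1.60% of all genes were. Without T-bet- cDC2 replicate 3, where subset and class coincide, it was 115 with 19 lower (15.3% and 2.53%). Of all genes, 4.45% were then higher and 3.85% lower. With the library class as a term it was 101 with 8 lower, where 2.99% and 1.68% of all genes were.

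Genes with more windows had larger differences. The median log2 fold change was 0.31 in genes with 1 window, 0.55 with 2, 0.76 with 3 and 1.21 with 4 or more, and 12.9%, 11.9%, 27.8% and 19.4% of them were higher in T-bet- cDC2. The last group held 31 genes, 6 of which passed, and some of its long genes may gather windows by their length, which was not tested. Genes with a member at a promoter were higher in 20.4% of 211, and those without in 11.0% of 526. The promoter class takes the start of any gene, so the start need not be that of the closest gene. Genes whose windows held C/EBP letters (12.6% higher) or AP-1 letters (15.1% higher) were near the 13.7% of all genes closest to a member.

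**Figure D4:**
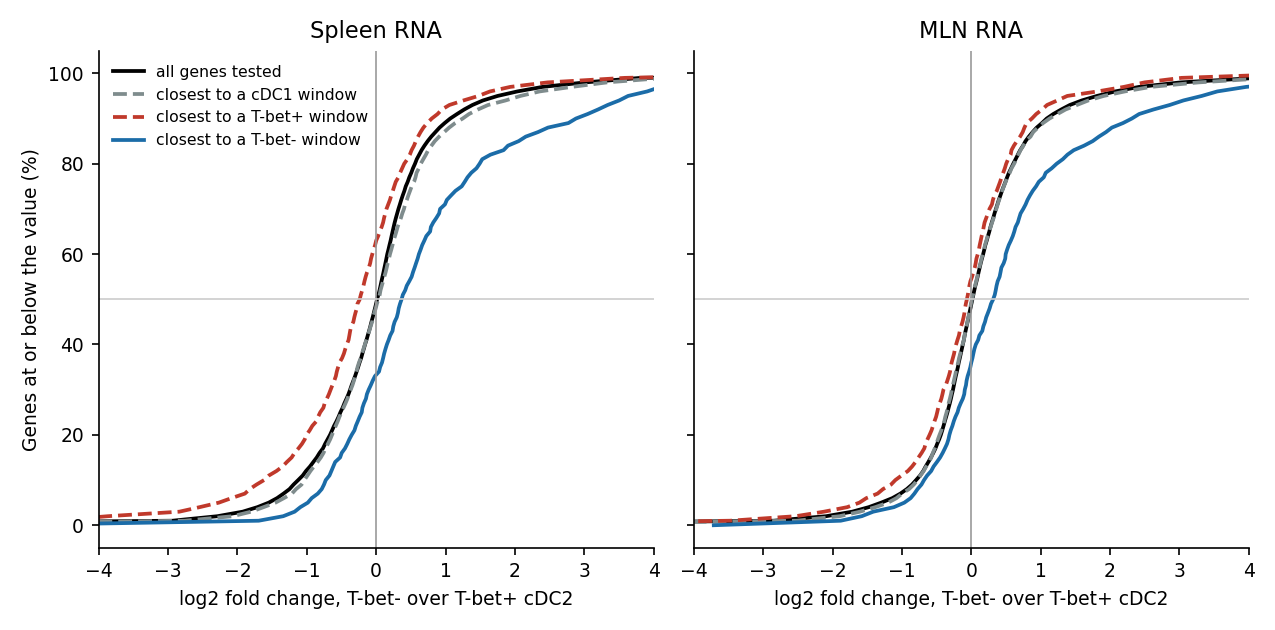
Percentile curves of RNA differences (log2, T-bet- over T-bet+ cDC2) in spleen and in MLN, for genes closest to the members, to T-bet+ cDC2 windows and to cDC1 windows and for all genes tested. The curve of genes closest to the members lies to the right of that of all genes, with medians of 0.37 against 0.01 in the spleen and 0.32 against 0.02 in the MLN.

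Lyz2, which codes for the lysozyme of myeloid cells and had a member at its promoter (13.8 and 14.2 CPM in T-bet- cDC2, 6.48 to 8.41 CPM in the others), had 248800, 206400 and 158600 normalised counts in spleen T-bet- cDC2. T-bet+ cDC2 had 5871, 4047 and 5419 and cDC1 31490, 19610 and 18720. The groups did not overlap, T-bet+ cDC2 was lowest, and the difference between T-bet- and T-bet+ cDC2 was 5.32 ± 0.305 on the log2 scale (SE, adjusted p = 4.43e-05).

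Cx3cr1, the receptor for fractalkine, had 4 members, in its introns, in an exon and in the promoter class. The closest transcript start to the member of the promoter class was that of Gm33858, 86 bases away. The 1 window counted as the Cx3cr1 promoter was not a member. It had 14.97 and 16.89 CPM in T-bet- cDC2, 10.81 and 13.26 CPM in T-bet+ cDC2 and 10.29 and 12.65 CPM in cDC1. Spleen T-bet- cDC2 had 6063, 3750 and 6080 normalised counts of Cx3cr1, T-bet+ cDC2 196.1, 57.24 and 195.4, and cDC1 30.32, 25.03 and 40.94. The log2 fold changes were 5.15 ± 0.506 over T-bet+ cDC2 (adjusted p = 0.000632) and 7.37 ± 0.567 over cDC1 (adjusted p = 2.84e-05). At the exon window, cDC1 had 0.251 and 0.825 CPM, T-bet+ cDC2 4.76 and 2.79 and T-bet- cDC2 11.4 and 12.4, the same order of subsets as in the RNA.

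C3, the central complement component, had 1 member at its promoter with 5.15 and 6.00 CPM in T-bet- cDC2 and 0.397 to 1.30 CPM elsewhere. Its RNA was 5088, 2108 and 2262 normalised counts in spleen T-bet- cDC2, 162.6, 80.13 and 153.4 in T-bet+ cDC2 and 50.21, 78.95 and 56.86 in cDC1 (log2 fold change over T-bet+ cDC2 4.58 ± 0.465, adjusted p = 0.000699).

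Among the 10 genes with the largest difference were further receptors. Msr1, the class A scavenger receptor, had 1927, 962.3 and 1092 normalised counts in spleen T-bet- cDC2, 42.74, 28.18 and 17.59 in T-bet+ cDC2 and 0, 17.33 and 31.84 in cDC1 (log2 5.48 over T-bet+ cDC2, adjusted p = 0.0091). Clec5a, a lectin receptor that signals through DAP12, had 504.5, 345.7 and 293.4, against 0, 16.73 and 0 in T-bet+ cDC2 (log2 6.03, adjusted p = 0.0149). Tlr8, an endosomal RNA sensor, had 669.3, 315.5 and 659.3, against 17.65, 27.3 and 0 (log2 5.17, adjusted p = 0.0335). Lilra5, Stard8 and Tmem26 differed by 4.65, 4.84 and 4.63 on the log2 scale. In all 6 of these genes the lowest spleen T-bet- cDC2 library was above the highest T-bet+ cDC2 library. The 6 were named for the size of this same difference, so the separation describes the choice. Its share over all genes is not given. The replicate numbers used as a block ended the calls of Msr1, Tlr8 and Lilra5.

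Csf1r, the receptor for the macrophage growth factor CSF-1, is on the list of monocyte-associated receptors, of which 5 of 22 had a member (Cd300a, Csf1r, Csf3r, Cx3cr1 and Lyz2). In the spleen 12 of the 22 listed genes were higher and 1 lower in T-bet- cDC2 than in T-bet+ cDC2, with a median log2 fold change of 0.94. Of the 5 with a member, 4 were higher. Beside this list and those that follow, 3.44% of all 14377 genes tested were higher and 1.95% lower in this comparison. Of the genes tested, 737 were closest to a member. The lists were chosen with earlier results of these data known, so their counts are a description. Csf1r had 71390, 44210 and 56610 normalised counts in T-bet- cDC2, 6179, 4836 and 5576 in T-bet+ cDC2 and 640.5, 794.3 and 979.1 in cDC1 (log2 3.38 over T-bet+ cDC2, adjusted p = 0.000139). Its only member, 4845 bases outside the gene, was weak, at 3.71 and 3.66 CPM. Csf3r, the receptor for G-CSF, rose by 3.66 over T-bet+ cDC2 (adjusted p = 0.00038).

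Of 26 genes of lysosome and lipid handling, 6 had a member (Abca1, Cd36, Lgmn, Plin2, Pltp and Psap). In the spleen, 10 of 25 tested were higher in T-bet- cDC2 than in T-bet+ cDC2, where 3.44% of all genes tested were. None was lower, and the median log2 fold change was 0.91. Psap, the precursor of the saposins of the lysosome, had 330100, 297700 and 277000 normalised counts in T-bet- cDC2, 47400, 38210 and 42830 in T-bet+ cDC2 and 408400, 442600 and 561000 in cDC1. It was thus 2.82 higher on the log2 scale than in T-bet+ cDC2 (adjusted p = 4.43e-05) and 0.64 lower than in cDC1 (log2 fold change -0.64, adjusted p = 0.022), although its members were 14950 to 15042 bases from a start and had 3.30 CPM or less in cDC1. Cd36, a fatty acid and lipoprotein receptor, went the same way, with 2654, 791.8 and 1527 in T-bet- cDC2, 168.2, 144.4 and 53.74 in T-bet+ cDC2 and 10940, 15890 and 18840 in cDC1. Its log2 fold changes were 3.76 (adjusted p = 0.00441) and -3.20 (adjusted p = 0.00274). Plin2, a lipid droplet coat protein, was 2.91 higher than in T-bet+ cDC2 (adjusted p = 0.00038), and its -0.61 against cDC1 did not pass (adjusted p = 0.131). Abca1, a cholesterol exporter with 4 promoter members, had 208.8, 116.1 and 205.9 against 57.61, 1.761 and 58.62 and did not pass against T-bet+ cDC2 (log2 2.17, adjusted p = 0.228).

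Pattern recognition and lectin receptors had a member at 5 of 26 genes (Clec4d, Mrc1, Nlrp3, Tlr4 and Tlr8). In the spleen, 10 of 25 tested were higher in T-bet- cDC2 than in T-bet+ cDC2 and none lower, where 3.44% of all genes tested were higher. The median log2 fold change was 1.28, but of the 5 with a member only Tlr8 was called. Mrc1, the mannose receptor, had 576.8, 106.4 and 327 normalised counts in T-bet- cDC2 and 1.858, 58.12 and 18.56 in T-bet+ cDC2 (log2 3.67, adjusted p = 0.0601). Clec4d, a lectin that binds mycobacterial glycolipid, had 129.8, 74.95 and 56.56 against 9.292, 4.403 and 24.43 (log2 2.77, adjusted p = 0.0854). Tlr4, the lipopolysaccharide sensor, ranged from 31.43 to 274 in T-bet- cDC2 and from 55.69 to 80.84 in T-bet+ cDC2, and the groups overlapped (adjusted p = 0.361).

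Migration and positioning receptors had a member at 5 of 18 genes (among them Ccr7, Cx3cr1, Cxcr4 and S1pr1). In the spleen, 7 of 18 were higher and none lower in T-bet- cDC2 than in T-bet+ cDC2, where 3.44% of all genes tested were higher. S1pr1, the receptor that guides exit from lymphoid tissue, had 57.56, 49.56 and 18.56 normalised counts in T-bet- cDC2 and 0.9292, 0 and 0 in T-bet+ cDC2, where the highest raw count was 1. Against 3 counts per library this is at least 15-fold higher than in T-bet+ cDC2. S1pr1 was not higher than in cDC1, with log2 fold changes over cDC1 of -0.38 in the spleen and -1.83 in the MLN. Its spleen call over T-bet+ cDC2 was kept in 11 of 15 alternatives. Cxcr4, the receptor for the chemokine Cxcl12, had 4870, 5085 and 3204 in T-bet- cDC2 and 1849, 2325 and 2354 in T-bet+ cDC2 (log2 1.01, adjusted p = 0.0385). With the library class as a term, Cxcr4 was no longer called (log2 0.86).

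**Figure D5:**
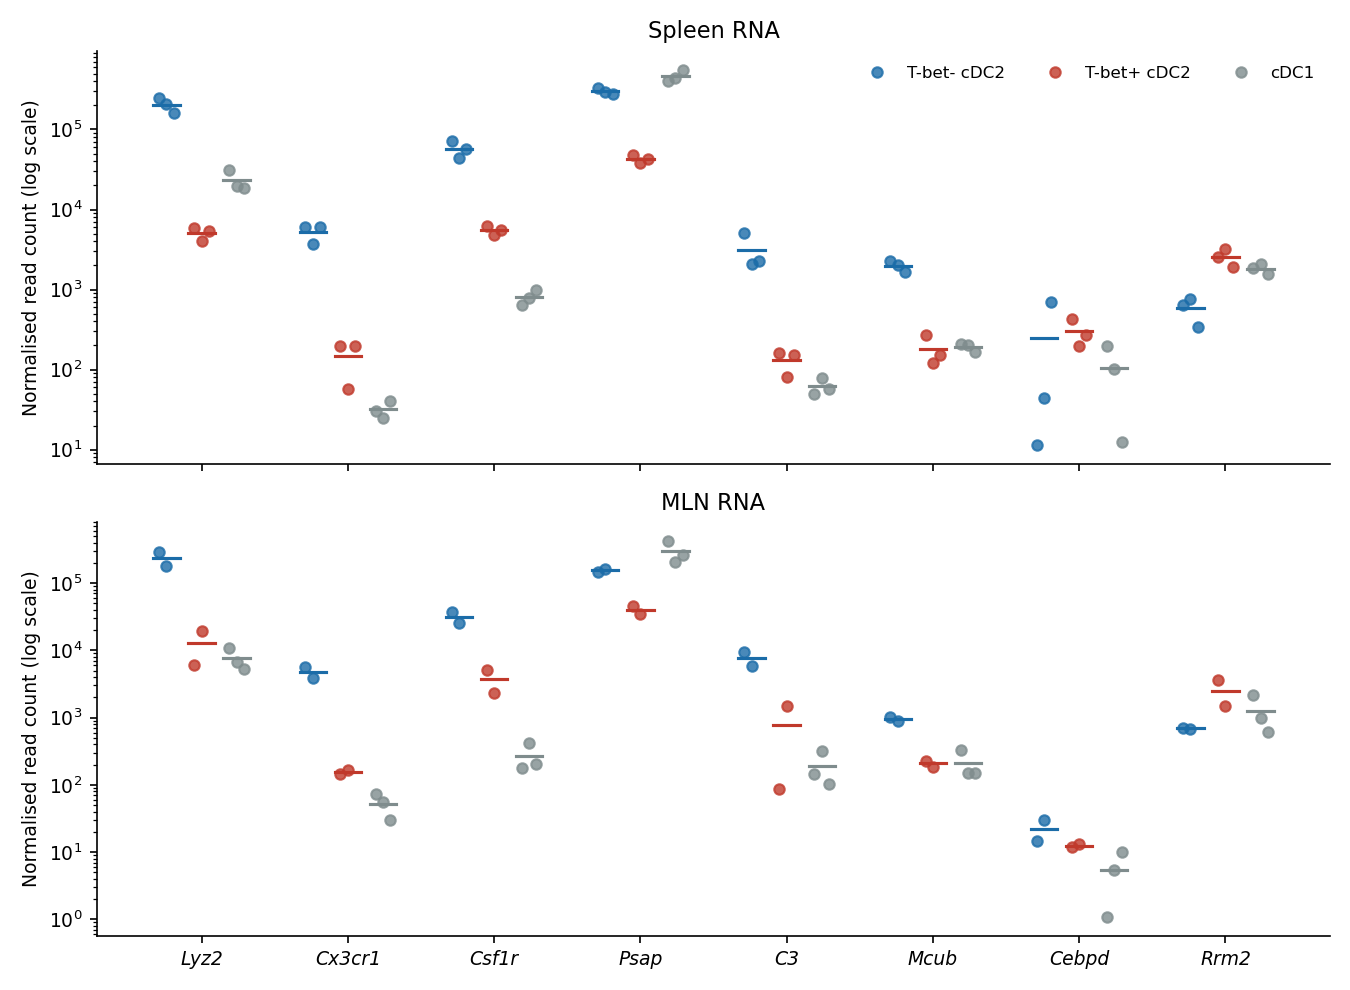
Normalised RNA counts on a log axis for Lyz2, Cx3cr1, Csf1r, Psap, C3, Mcub, Cebpd and Rrm2 in the spleen and MLN libraries of each subset, with 1 dot per library and a bar at the mean. T-bet- cDC2 lies above T-bet+ cDC2 in the spleen for the first 6 genes, overlaps it for Cebpd (11.29 to 692.9 against 199 to 432.1) and lies below it for Rrm2.

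Regulators had few members. Of 15 listed ROR, C/EBP, NFI and related regulators, Cebpd and Nfic had a member, 13 were tested, and 2 were higher in spleen T-bet- cDC2 than in T-bet+ cDC2, neither of them with a member. Cebpd, which codes for C/EBP delta, was the gene of the window with the most signal, but its RNA followed the library class, with 11.29 and 43.52 normalised counts in the T-bet- cDC2 libraries of the negative class and 692.9 in the other. T-bet+ cDC2 had 432.1, 199 and 266.7, and cDC1 195.2, 102.1 and, in its library of the negative class, 12.51. The log2 fold change of -0.26 over T-bet+ cDC2 did not pass (adjusted p = 0.933) and became 0.96 with the class as a term (adjusted p = 0.489).

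Of 27 other myeloid transcription factors, Mitf, Runx1, Runx2 and Tfec had a member, and 3 were higher and none lower in spleen T-bet- cDC2 than in T-bet+ cDC2, with a median log2 fold change of -0.11. Mitf, a regulator of lysosomal and melanocyte genes with 4 intronic members, had 149, 95.5 and 90.15 normalised counts in T-bet- cDC2, 23.23, 14.09 and 14.66 in T-bet+ cDC2 and 43.58, 33.7 and 64.82 in cDC1. The log2 fold change over T-bet+ cDC2 was 2.68 ± 0.447 (adjusted p = 0.0091). Tfec, a factor of the same family, had 169.3, 53.19 and 72.47 against 7.433, 51.95 and 18.56, which did not pass (adjusted p = 0.385). Runx1 and Runx2 had adjusted p-values of 0.935 and 0.863. Of 12 listed T-bet+ cDC2 genes, only Notch2 had a member, and 6 of the 12 were lower in T-bet- cDC2 and none higher, with Notch2 itself not passing (log2 0.24, adjusted p = 0.77).

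Several genes with the most members did not differ in RNA by this test. Mcub passed, with 2244, 2031 and 1660 normalised counts in spleen T-bet- cDC2, 269.5, 120.6 and 153.4 in T-bet+ cDC2 and 209.4, 205.1 and 166 in cDC1 (log2 3.45 ± 0.339 over T-bet+ cDC2, adjusted p = 0.000632). Slc16a10 passed less clearly, with 81.27, 105.2 and 84.84 against 22.3, 7.045 and 9.77 (log2 2.78, adjusted p = 0.0425), and was not called with the library class. Xylt1, with 10 members, had 11.29, 53.19 and 56.56 normalised counts in T-bet- cDC2 and 30.66, 15.85 and 11.72 in T-bet+ cDC2 (adjusted p = 0.462). Noct, with 9, had 105, 48.36 and 70.7 against 80.84, 33.46 and 4.885 (adjusted p = 0.624). In both genes the groups overlapped.

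Ets2, with 5 members, had 722.4, 1057 and 2645 normalised counts in spleen T-bet- cDC2 and 506.4, 511.6 and 170 in T-bet+ cDC2, which did not overlap but did not pass (log2 1.9, adjusted p = 0.17), and it was called with the library class as a term (log2 2.87). Nceh1, a cholesterol ester hydrolase with 6 members, had 1081, 673.4 and 709.7 against 457.1, 300.3 and 277.5 (log2 1.25, adjusted p = 0.0634). Fndc3b (log2 1.21, adjusted p = 0.169) and Socs6 (log2 1.25, adjusted p = 0.139) also missed the threshold, and Pvt1 and Sh3bp5 had log2 values of -0.28 and 0.07. Of the 15 genes with the most members, Cubn, Gm28981, Gm31522, Gm826 and Lipc had no spleen test.

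All 6 genes that were lower in T-bet- cDC2 than in T-bet+ cDC2 are named. Ncald, a neuronal calcium sensor, had 28.22, 4.836 and 21.21 normalised counts in spleen T-bet- cDC2 and 794.4, 813.6 and 704.4 in T-bet+ cDC2 (log2 fold change -5.39, adjusted p = 0.00422), although its single member had 3.23 and 3.26 CPM in T-bet- cDC2 and 0.893 and 1.30 CPM in T-bet+ cDC2. Cdhr3, a cadherin-related gene, had 54.18, 42.31 and 61.86 against 327.1, 442.9 and 609.7 in T-bet+ cDC2 (log2 -3.12), and in cDC1 at most 3 counts, so that T-bet- cDC2 was at least 17.3-fold higher than cDC1. Rrm2, a ribonucleotide reductase subunit of dividing cells, had 636.6, 764 and 342.9 against 2544, 3171 and 1897 (log2 -2.13, adjusted p = 0.00658), with its member 21109 bases away. Tspan9, Adam8 and Gsn had log2 fold changes of -1.37, -0.96 and -0.74. None of the 6 had a member at its promoter.

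Against cDC1 in the spleen, 198 of the 737 genes (26.9%) were higher in T-bet- cDC2 and 38 (5.16%) lower, where 9.65% and 6.20% of all genes tested were. The median log2 fold change was 0.38 in genes closest to a member and -0.01 over all genes. Genes closest to a T-bet+ cDC2 window had 225 of 1299 (17.3%) higher and 103 (7.93%) lower, with a median of 0.12. Genes closest to a cDC1 window had 297 higher (8.34%) and 476 lower (13.4%) of 3561 and a median of -0.24. A share of higher genes above that of all genes was thus not particular to the members. The count of 38 lower became 61 (8.13%) without T-bet- cDC2 replicate 3, where 10.4% of all genes were lower. By list, 16 of 22 monocyte-associated receptors, 18 of 25 pattern recognition and lectin receptors, 11 of 25 lysosome and lipid genes and 9 of 18 migration receptors were higher, with 0, 0, 3 and 1 lower. Of the regulators 3 of 13 were higher, of the other transcription factors 11 of 27 with 3 lower, and of the T-bet+ cDC2 genes 4 of 12 with 1 lower. Adam8, a surface metalloprotease with 2 members, had 5993, 4376 and 4847 normalised counts in T-bet- cDC2 and 22730, 23270 and 27290 in cDC1 (log2 -2.27, adjusted p = 3.43e-05), so that it was lower than in both other subsets, as was Rrm2 (log2 -1.65 against cDC1, adjusted p = 0.00736).

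In the MLN, edgeR without a replicate block called no gene between T-bet- and T-bet+ cDC2 (0 of 742 closest to a member in either direction, with 0% of all 15298 genes tested), with 2 libraries per subset. At an unadjusted p under 0.05, 17.7% of the genes closest to a member were higher in T-bet- cDC2, where 5.70% of all genes were, and DESeq2 called 60 of 908 genes closest to a member higher (6.61%) and 4 lower (0.441%), where 0.699% and 0.323% of all 34047 genes were. The median log2 fold change was 0.32 in genes closest to a member, with 64.0% above 0, and 0.02 over all genes tested. By number of windows the medians were 0.21, 0.44, 0.75 and 1.15 for 1, 2, 3 and 4 or more windows. Lyz2 had 290900 and 178300 normalised counts in MLN T-bet- cDC2 and 6140 and 19500 in T-bet+ cDC2 (log2 4.19, adjusted p = 0.144). Cx3cr1 had 5677 and 3842 against 146 and 167.7 (log2 4.92, adjusted p = 0.0569), and Csf1r 36540 and 25380 against 5132 and 2346 (log2 3.05, adjusted p = 0.194). These 3 genes were picked from those described in the spleen, and none passed here.

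Some genes differed by less in the MLN than in the spleen. Cd36 had 1194 and 990.1 normalised counts in MLN T-bet- cDC2 and 228.3 and 1339 in T-bet+ cDC2, and the groups overlapped (log2 0.48, adjusted p = 0.89). S1pr1 had 174.4 and 167.9 against 1.959 and 131.1 (log2 1.36, adjusted p = 0.792), and Lilra5 376.6 and 246.8 against 27.43 and 279.4 (log2 1.02, adjusted p = 0.803). A test of the difference between organs called 0 of 785 genes closest to a member, while 8.41% had an unadjusted p under 0.05, where 5.04% of all 16795 genes did. DESeq2 called 4, Ahnak, Cd226, Ext1 and Plin2, which were named after their values were seen.

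Against cDC1 in the MLN, 108 of 742 genes (14.6%) were higher in T-bet- cDC2 and 12 (1.62%) lower, where 4.34% and 1.44% of all genes were. The medians were 0.26 and 0.01. Genes closest to a T-bet+ cDC2 window had 118 of 1307 (9.03%) higher and 24 (1.84%) lower, with a median of 0.17. Those closest to a cDC1 window had 159 higher (4.38%) and 134 lower (3.69%) of 3631 and a median of -0.15. Without cDC1 replicate 3 the 108 became 63 and the 12 became 4, where 2.25% and 0.463% of all genes passed. Without cDC1 replicate 2 the 12 became 7, where 0.906% of all genes were lower. Leaving out T-bet- cDC2 replicate 1 or 2 leaves 1 library in that subset. The medians were then 0.27 and 0.27, with -0.03 and 0.003 over all genes. Cx3cr1 had 72.02, 55.84 and 29.94 normalised counts in MLN cDC1 (log2 fold change of T-bet- cDC2 over cDC1 6.50, adjusted p = 0.000561), and Mcub 332.8, 150 and 148.8 against 1033 and 897.2 in T-bet- cDC2 (log2 2.2, adjusted p = 0.0198). Xylt1 did not pass the filter there. By list, 11 of 22 monocyte-associated receptors, 14 of 25 pattern recognition and lectin receptors, 7 of 24 lysosome and lipid genes, 5 of 17 migration receptors, 9 of 27 other transcription factors, 3 of 13 regulators and 1 of 12 T-bet+ cDC2 genes were higher, with 1 migration receptor lower.

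Summed macrophage markers were highest in T-bet- cDC2, while summed monocyte markers were higher than in T-bet+ cDC2 but not than in cDC1. The 8 macrophage markers summed to 25960 to 35540 normalised counts in spleen T-bet- cDC2 libraries, 10640 to 12670 in T-bet+ cDC2 and 2651 to 4783 in cDC1, and 6 of 8 were higher in T-bet- cDC2 than in T-bet+ cDC2. In the MLN the sums were 36950 to 67480, 10260 to 10510 and 2027 to 5314, and no macrophage marker was called between T-bet- and T-bet+ cDC2. The 7 monocyte markers summed to 7083 to 9287 in spleen T-bet- cDC2, 2430 to 2562 in T-bet+ cDC2 and 8247 to 10920 in cDC1, where Vcan was at 0. Of 5 tested, 3 were higher in T-bet- cDC2 than in T-bet+ cDC2, and 3 were higher and 1 lower than in cDC1. In the MLN the monocyte sums were 2145 to 3542, 1388 to 1521 and 3124 to 7821. No monocyte marker was called there between T-bet- and T-bet+ cDC2. No macrophage marker was at 0 in all libraries of a subset. C1qb of the macrophage list, Vcan and Ace of the monocyte list and Cadm1 of the cDC1 list were themselves closest to a member. The 7 cDC1 markers summed to 5423 to 13830 in spleen T-bet- cDC2, 3437 to 5684 in T-bet+ cDC2 and 125100 to 151400 in cDC1, and 4 of 7 were higher in T-bet- cDC2 than in T-bet+ cDC2. The splenic sort is described as leaving out cells with CD64 or Ly6C on their surface. The part of other cells in the windows and in the RNA was not tested.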

How the data were processed

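The 22 samples comprise 6 ATAC-seq and 16 RNA-seq libraries. The authors aligned ATAC-seq reads to mm10 (GRCm38) with Bowtie2 (2.2.5), shifted them by +4 and -5 bases, called peaks with MACS2 (2.1.1.20160309) on all replicates together and deposited raw counts per peak and per window of 150 bases around each summit. Calling on all libraries together leaves the set of windows the same for every subset. RNA-seq reads were aligned by the authors with HISAT2 (2.1.0), and they deposited raw gene counts of uniquely aligned reads. The deposited peak files also hold a score and a value read here as -log10 p, not used here. SAMtools 1.9 is in the submitters' processing notes.

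Members and gene lists were chosen with earlier results of these data known. Window positions and motifs came from the mm10 reference sequence and GENCODE M21 annotation, which is not the release the authors counted on, so genes were joined by symbol. Normalised counts are raw counts divided by TMM effective library sizes scaled to their geometric mean. Tests used edgeR (4.0.16, R 4.3.3) quasi-likelihood fits on raw counts over all libraries of an organ or assay, after its filter on low counts, with Benjamini-Hochberg adjustment over all features tested and no replicate block. RNA calls needed an adjusted p under 0.05, and ATAC calls 0.01 with a log2 fold change of at least 0.5 in size. Residual degrees of freedom were 6 in spleen, 4 in MLN and 3 in ATAC, which limits precision, and intervals cover counting error only. DESeq2 (1.42.0), other filters, other member rules, the library class and leaving out each library were alternatives. Libraries were classed by the correlation of log counts with transcript GC content, split at 0.1 in the spleen. The fits were tested on simulated data.

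Named windows were the 10 with the highest lower T-bet- cDC2 CPM, the 10 with the largest ratio and 3 on each side of the threshold. Named genes were the 15 with the most members, the 10 with the largest and smallest spleen fold change at a mean of at least 50 normalised counts, and up to 4 members per list. Python 3.11.15, pandas 2.3.3, numpy 2.4.6, scipy 1.17.1, pysam 0.24.0 and matplotlib 3.10.9 were used. A few named genes are not reported here.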

Additional observations from a re-analysis of the deposited data

How the results depend on the processing

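The T-bet- window count depended on the rule. It was 1921 on TMM-normalised CPM (1735 of them shared) and 2247 on CPM adjusted for GC (1870 shared), 767 at a ratio of 2, 1194 at a minimum of 5 CPM, 3316 at 1 CPM and 1282 whole peaks. Leaving out 1 library gave 2366 to 4306, highest without T-bet- cDC2 replicate 1 and 3747 without replicate 2. Leaving a library out loosens the rule by construction. The C/EBP share relative to all windows, 3.11 times, was 3.65 in the central 100 bases and 4.34 at a ratio of 2. AP-1, 3.13 times, was 3.43 and 3.50 there and 2.80 outside promoters, an alternative chosen after seeing the data. The E-box, 0.207 times, was 0.0965 and Runx, 1.5 times, was 1.22 at a ratio of 2. The promoter share was 15.4% within 1000 bases and 18% at a ratio of 2.

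Accessibility in T-bet+ cDC2 over cDC1 had 168 higher and 11 lower with DESeq2 and 87 and 8 at a ratio of 2, and 144 to 268 higher and 12 to 22 lower with 1 library left out. Spleen genes higher in T-bet- cDC2 than in T-bet+ cDC2 (101, with 6 lower) were 157 with DESeq2 (14 lower) and 161 with no filter (17 lower). Of all genes, 2.49% were higher and 1.66% lower with DESeq2, and 2.40% and 2.36% with no filter. There were 43 for promoter members (0 lower) and 55 at a ratio of 2 (3 lower), beside 3.44% and 1.95% of all genes. With 1 library left out there were 49 to 115 higher and 4 to 19 lower, where 1.40% to 4.45% and 0.629% to 3.85% of all genes were. DESeq2 kept 100 of the 101, and the library class as a term kept 76. Over cDC1 in the spleen (198 and 38), there were 120 higher with at least 10 counts in every library, where 8.45% of all genes were. There were 70 higher and 7 lower for promoter members and 99 and 17 at a ratio of 2, beside 9.65% and 6.20% of all genes. Leaving out 1 library gave 152 to 199 higher and 28 to 61 lower, where 6.07% to 9.93% and 3.50% to 10.4% of all genes were. In the MLN, the 0 higher and 0 lower than T-bet+ cDC2 became 60 and 4 with DESeq2 and 80 and 9 with no filter. Of all genes, 0.699% and 0.323% passed with DESeq2 and 1.28% and 0.774% with no filter. There was 1 higher with at least 10 counts (0.0171% of all genes) and 4 higher with only the libraries compared (0.0686%). With 1 cDC1 library left out, 0 to 1 were higher, where 0% to 0.00661% of all genes were. Over cDC1 in the MLN (108 and 12), there were 179 and 36 with no filter, 67 higher with at least 10 counts and 34 lower with DESeq2. Of all genes, 4.92% and 2.53% passed with no filter, 3.45% were higher with at least 10 counts and 1.91% lower with DESeq2. There were 45 and 2 for promoter members and 66 and 4 at a ratio of 2, beside 4.34% and 1.44% of all genes. Leaving out 1 library gave 29 to 123 higher and 0 to 18 lower. DESeq2 called 4 genes for the difference between organs. With the closest protein-coding gene instead, chosen after seeing the data, spleen calls were 111 higher and 8 lower than T-bet+ cDC2. The cause of these changes was not tested.

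Replicate numbers are shared by the subsets. T-bet+ cDC2 and cDC1 libraries with the same number deviated together (correlations of 0.163 to 0.304 in the spleen and 0.469 and 0.553 in the MLN), but T-bet- cDC2 libraries did not deviate with their number in T-bet+ cDC2 (-0.072 to 0.047 in the spleen and -0.112 in the MLN) or in cDC1 (-0.622 to -0.109 in the spleen, -0.011 and 0.16 in the MLN), and ATAC-seq gave -0.056 to 0.027. By the number in the library name, MLN T-bet- cDC2 gave 0.112 with T-bet+ cDC2 and 0.011 and 0.257 with cDC1. These correlations cannot decide whether the libraries were paired. In the spleen, T-bet- cDC2 replicate 1 and cDC1 replicate 3, of different number but the same library class, had 0.726. T-bet- cDC2 replicate 2, also of that class, had 0.017 with the same cDC1 library. The comparisons of T-bet- cDC2 were fitted without a block, and pairing is not excluded. With the numbers as a replicate block, 53 spleen genes were higher in T-bet- cDC2 than in T-bet+ cDC2, 52 of them among the 101. Of all genes, 1.64% were. In the MLN, 6 genes were lower than cDC1, where 0.693% of all genes were. With a replicate block by the number in the library name, the MLN had 29 higher and 2 lower than T-bet+ cDC2. Of all genes, 0.765% and 0.085% were. Against cDC1 it had 184 higher and 53 lower, where 9.26% and 6.94% of all genes were.

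Named genes that changed direction had not passed the test. Without T-bet- cDC2 replicate 3, subset and library class cannot be told apart in this spleen comparison. Sh3bp5 (log2 0.07) was -0.024 with the replicate block, from -0.60 to 0.51 with 1 library left out, -0.60 without T-bet- cDC2 replicate 3 and -0.18 and -0.034 without T-bet+ cDC2 replicates 1 and 2. Cebpd (-0.26) was 0.96 with the library class as a term, 0.31 and 0.23 without T-bet- cDC2 replicates 1 and 2, 0.11 without T-bet+ cDC2 replicate 1 and -3.38 without T-bet- cDC2 replicate 3. Runx1 (-0.11) was 0.78, 0.20 and 0.12 with the class and without T-bet- cDC2 replicates 1 and 2 and -0.80 without replicate 3, and Runx2 (0.12) ranged from -0.021 without T-bet- cDC2 replicate 3 to 0.22 without replicate 1. Msr1, Tlr8, Lilra5, S1pr1, Slc16a10, Cxcr4, Adam8 and Gsn were not called with the replicate block, and Tlr8 not with DESeq2.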

Other observations

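The members were unevenly spread over the chromosomes. They were 160 of 9861 windows on chromosome 3 (1.62%) and 25 of 4921 on chromosome X (0.508%), against 1.1% of all windows. The 2 largest groups on chromosome 3, at Noct and Fndc3b, held 16 of those 160. A search of all words of 7 letters present in at least 3% of members or of all windows gave TGACTCA (20.1% of members and 5.95% of all windows), GTTGCAA (3.56% and 1.08%) and TGCAACA (5.14% and 1.59%) as the words with the largest ratio. The words with the smallest ratio were CAGGTGG, in 0.866% of members and 3.68% of all windows, and CACCTGC, in 1.02% and 3.60%. The first word is the AP-1 letters, the next words hold part of the C/EBP letters, and the last words hold the E-box. The search read the same windows as the motif counts, so it is no separate support. Some other words, such as CAGGACC in 1.32% of members and 3.15% of all windows, hold none of these letters.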
